A study of Mus musculus with 29 samples.

Results

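The sites described here are the places in the mouse genome where Atoh1 had a peak in both cell lines that carried no Gfi1 transgene, iAtoh1 and iP+A, and no peak in either line that carried one, iG+A and iGPA. Every peak of the 9 lists was represented by 300 bp around its summit, and windows with a base in common were merged to 1 site. Of 78408 sites in all, 44363 held an Atoh1 peak in at least 1 line and 1151 met the rule. The sites were chosen by the presence and absence of Atoh1 peaks, so peak strengths in these lists are described and not tested.

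The peaks came from ChIP-seq, the sequencing of DNA that is immunoprecipitated with a protein, in 17 ChIP libraries and 12 input libraries from 6 doxycycline-inducible mouse embryonic stem cell lines, all derived from the parental line A2loxCre and all carrying a Venus reporter. The transgenes were Atoh1 alone in iAtoh1, Gfi1 and Atoh1 in iG+A, Pou4f3 and Atoh1 in iP+A, all 3 factors in iGPA, Pou4f3 alone in iPou4f3, and Gfi1 and Pou4f3 in iG+P. Every line was grown as embryoid bodies, aggregates of differentiating stem cells, and was collected on day 6 after 48 h in 2 µg/ml doxycycline. The FLAG tag served for Atoh1 and the MYC tag for Pou4f3, while Gfi1 itself was precipitated, in iGPA only. Gfi1 ChIP was done in 1 library and every other ChIP in 2. The authors merged replicates before calling peaks, so no site has a spread between replicates, and a difference between lists is a difference between 2 merged samples. In bulk embryoid bodies a lower share of bound cells and weaker binding per cell cannot be told apart.

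Atoh1 is a basic helix-loop-helix factor that binds E-boxes, short DNA sequences of the form CANNTG, and it is required for sensory hair cells and for several kinds of neurons. Gfi1 is a zinc finger repressor and Pou4f3 is a POU homeodomain factor, and both are needed for hair cells to mature and survive. Whether Gfi1 removes Atoh1 from some of its sites is the question that this set of sites addresses.

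The DNA of strong examples is shown first. These members had no called Atoh1 peak in iG+A and iGPA, neither one that the authors kept nor one that they left out. They were ranked by the lower of their −log10 p values in iAtoh1 and iP+A. Each sequence is the 101 bp around the iAtoh1 summit in build NCBIM37 (mm9). The first set is the 5 highest of such members that hold the full Atoh1 E-box-associated pattern (AtEAM), which contains a core hexamer, and capitals mark each match. The Gm6984 and Akap13 sites rank below the top 10 of all such members, and the Gm6984 site lies 137609 bp from that start.
Odz2 site (chr11:35920279-35920379, plus strand): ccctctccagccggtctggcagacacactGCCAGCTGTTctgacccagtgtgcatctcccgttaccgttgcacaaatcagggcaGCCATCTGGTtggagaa
Clstn3 site (chr6:124376820-124376920, plus strand): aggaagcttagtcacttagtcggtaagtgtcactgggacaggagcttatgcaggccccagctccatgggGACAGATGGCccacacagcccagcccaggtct
Prss21 site (chr17:24003149-24003249, plus strand): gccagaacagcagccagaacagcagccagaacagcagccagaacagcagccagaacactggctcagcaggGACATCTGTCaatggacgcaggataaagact
Gm6984 site (chr14:74492952-74493052, plus strand): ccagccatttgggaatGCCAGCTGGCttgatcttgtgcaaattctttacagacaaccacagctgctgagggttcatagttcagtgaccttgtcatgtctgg
Akap13 site (chr7:82753864-82753964, plus strand): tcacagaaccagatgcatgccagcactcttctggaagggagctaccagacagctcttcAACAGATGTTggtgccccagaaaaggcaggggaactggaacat

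The second set holds other members of the top 10, which lack the full pattern in the window. Not all of the top 10 are printed, and the 7SK site has no core hexamer in its 101 bp. Capitals here mark the core hexamers of the pattern alone, which are CAGATG (on the other strand CATCTG), the palindrome CAGCTG, and the palindrome CATATG.
Ccr7 site (chr11:99008722-99008822, plus strand): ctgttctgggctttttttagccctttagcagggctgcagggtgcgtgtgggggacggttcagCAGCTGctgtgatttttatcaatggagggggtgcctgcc
Six3 site (chr17:85798238-85798338, plus strand): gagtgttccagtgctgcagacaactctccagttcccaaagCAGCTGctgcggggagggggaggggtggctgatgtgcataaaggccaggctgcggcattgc
Kif21b site (chr1:138033229-138033329, plus strand): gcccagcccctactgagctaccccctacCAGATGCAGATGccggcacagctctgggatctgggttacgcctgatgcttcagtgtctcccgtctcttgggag
Wdr11 site (chr7:136934367-136934467, plus strand): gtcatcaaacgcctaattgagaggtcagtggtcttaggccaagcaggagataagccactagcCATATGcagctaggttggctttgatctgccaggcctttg
7SK site (chr6:99990587-99990687, plus strand): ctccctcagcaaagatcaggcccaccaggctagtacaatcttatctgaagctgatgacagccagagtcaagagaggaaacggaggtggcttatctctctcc
As a contrast, the Gpr142 and Tbl1xr1 sites are the strongest of the opposite kind, with peaks in iG+A and iGPA only. Each is centred on the iGPA summit, and the Tbl1xr1 sequence, with 11 genome copies, holds no core hexamer in these 101 bp.
Gpr142 site (chr11:114669074-114669174, plus strand): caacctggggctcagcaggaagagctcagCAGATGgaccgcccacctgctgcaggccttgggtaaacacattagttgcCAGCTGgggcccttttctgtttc
Tbl1xr1 site (chr3:21512978-21513078, plus strand): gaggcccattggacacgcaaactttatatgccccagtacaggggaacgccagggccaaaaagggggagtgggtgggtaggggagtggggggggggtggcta

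The Odz2 site lies in a coding exon of Odz2, a teneurin gene, and held Atoh1 peaks of 5.86-fold enrichment in iAtoh1 (47 fragments) and 7.10-fold in iP+A (65 fragments). Fold enrichment is the authors' ratio of ChIP signal at a summit to background around it. At their usual background, the weakest kept peaks rested on 18 fragments in iG+A and on 19 in iGPA. The Clstn3 site was intergenic, 6633 bp downstream of a start of Clstn3, and reached 5.13-fold in iAtoh1 and 5.16-fold in iP+A. The Prss21 site lay 1845 bp upstream of its gene and reached 5.01-fold and 4.95-fold. The Ccr7 site lay in an intron of Ccr7, a chemokine receptor gene, with 5.25-fold in iAtoh1 and 6.02-fold in iP+A. The Six3 site lay in an intron of the non-coding gene 1700106N22Rik, 214669 bp from the Six3 start. It reached 5.01-fold in iAtoh1 and 7.96-fold in iP+A. Others of the top 10 had their nearest starts at Adamts19 (59544 bp away), Kif21b (5225 bp), Wdr11 (161915 bp) and a 7SK copy (147122 bp). All 10 had a sequence found once in the genome, all 10 held a core hexamer in the 250 bp around the summit, and 9 lay more than 5 kb from a start. Among them, the Wdr11 site was the one with a Pou4f3 peak, in iPou4f3 (−log10 p 7.07) and in iP+A (16.2).

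The 1151 members were a small class. They made up 2.59% of the sites with an Atoh1 peak and 14.9% (95% interval 14.1 to 15.7%) of the 7730 sites with peaks in both iAtoh1 and iP+A. The opposite class, with peaks in iG+A and iGPA only, held 3001 sites, and 4767 sites had a peak in all 4 lists. Among the 6 combinations of exactly 2 lists, those that follow no single factor held 935 sites (iAtoh1 with iGPA) and 818 sites (iP+A with iG+A). The combination of iAtoh1 with iG+A, the lines without Pou4f3, held 1056 sites, and that of iP+A with iGPA, the lines with Pou4f3, held 3542. The lists differed in length, from 15568 kept peaks in iAtoh1 to 26231 in iGPA, and no number expected from those lengths was computed.

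**Figure D1:**
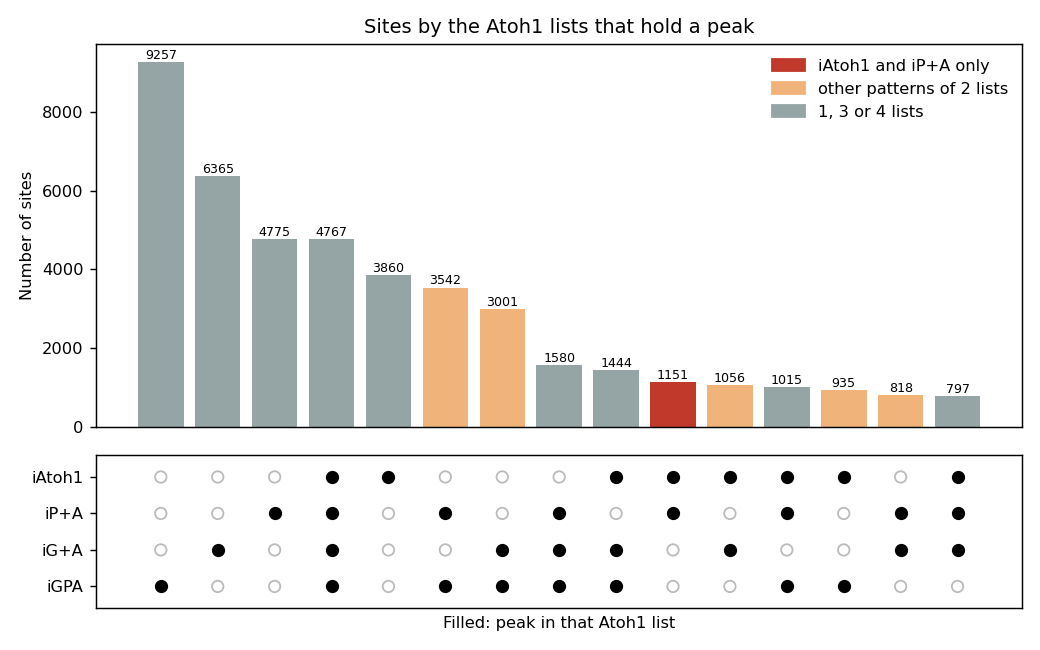
Number of sites (vertical axis) for each combination of the 4 Atoh1 lists, with filled circles marking the lists that hold a peak. The bar of iAtoh1 and iP+A only stands at 1151, beside 1056 for iAtoh1 and iG+A only and 935 for iAtoh1 and iGPA only, and the bar of all 4 lists stands at 4767.

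The rule draws its line at 1 shared base. The member nearest to a window with Gfi1 without sharing a base was at a start of Tmeff2, where the windows met end to end, with 2.69-fold in iAtoh1 and 2.90-fold in iP+A. The next lay 4 bp away near Gm16440 on chromosome 14, at 3.66-fold and 4.52-fold, in a sequence with 31 genome copies. Just outside the rule, a site near Prl2c3 shared 2 bp with an iG+A window of 2.41-fold, and a site near Gm9732 shared 2 bp with an iGPA window of 2.65-fold. Of the members, 139 lay within 150 bp of a window of iG+A or iGPA and 487 within 1000 bp, and the median gap was 1721 bp.

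The peaks that defined the members were ordinary for their lists and weaker than those of sites in all 4 lists. Median fold enrichment was 3.05 in iAtoh1 (quartiles 2.81 and 3.54) and 3.01 in iP+A (2.80 and 3.46). Medians were 3.18 and 3.12 over all kept peaks of these lists, and 3.91 and 3.87 at sites in all 4 lists. The median member rested on 25 fragments in iAtoh1, where the weakest kept peaks had 19, and on 28 in iP+A, where they had 21. Within 5 fragments of that floor lay 551 members (47.9%) in iAtoh1 and 427 (37.1%) in iP+A. The peak caller's −log10 p had medians of 7.33 and 7.76, the same as the medians of all kept peaks of iAtoh1 (7.33) and iP+A (7.76), against 11.0 and 12.6 at sites in all 4 lists. Both values reached 10 at 145 members (12.6%) and 20 at 6. These values took part in choosing the members and are given without a test. The sites of iG+A and iGPA only had the median fold enrichment of their whole lists, 3.20 in iG+A and 3.45 in iGPA. Their median −log10 p was 6.99 in iG+A, below the 7.58 of all kept peaks, and 9.19 in iGPA, the same as the list. The iAtoh1 and iP+A summits of a member lay a median of 37 bp apart (quartiles 16 and 92.5), against 26 bp at sites in all 4 lists, and at 39 members the windows of both lines touched only through another peak.

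**Figure D2:**
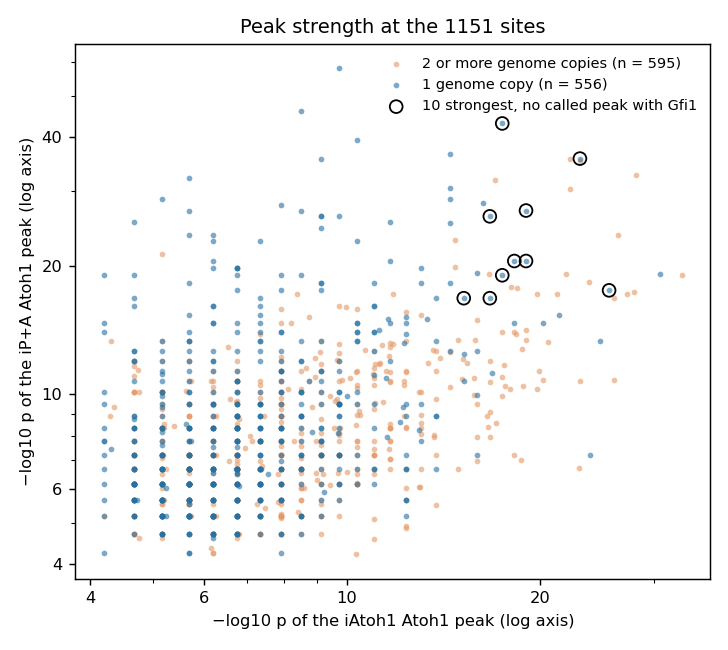
The −log10 p of the Atoh1 peak in iAtoh1 (horizontal, log axis) against that in iP+A (vertical, log axis) at each of the 1151 members. Points are coloured by the number of genome copies of the sequence. Circles mark the 10 strongest members without any called Atoh1 peak in iG+A and iGPA. Most points lie near the lower left corner, where the medians are 7.33 and 7.76, and all circled points are single-copy sites.

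A member without a kept peak in the lines with Gfi1 was not always without a called one. The authors left 31.5% of called peaks out of the iG+A summit list and 17.2% out of the iGPA list by a filter that was not given in the sources used here. Such a left-out peak of iG+A or iGPA overlapped 389 members (33.8%, 95% interval 31.1 to 36.6%), beside 17.4% of all sites that had a kept peak in iAtoh1 or iP+A and none in iG+A and iGPA. Of these, 196 were in iG+A only, 56 in iGPA only and 137 in both. The left-out iG+A peaks had a median of 2.94-fold (−log10 p 6.41) at members with 3.42-fold in iAtoh1 and 3.12-fold in iP+A. The left-out iGPA peaks had a median of 2.60-fold at members with 3.54-fold and 3.23-fold. At sites of iG+A and iGPA only, left-out peaks of iAtoh1 or iP+A overlapped 12.7%, which was 21.1 percentage points lower than the share of members (95% interval 18.2 to 24.1). That gap takes no account of repeated sequence, which was more frequent at members. Among members whose sequence is found once in the genome, 11.5% had a left-out peak, against 54.6% of the others. The opposite class was not split in this way. Of all members, 762 (66.2%) had no called Atoh1 peak in either line with Gfi1. The share with a left-out peak was higher among stronger members, 21.1% of those whose lower −log10 p was under 6 and 66.2% of those at 10 and over. At 10 and over, a left-out peak was at 27.1% of 59 single-copy members and 93.0% of 86 members with copies.

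The members held fewer E-boxes than the sites in all 4 lists and the sites of iG+A and iGPA only. A core hexamer lay within the 250 bp around the summit at 605 members (52.6%, 95% interval 49.6 to 55.5%), beside 64.8% of all sites with an Atoh1 peak and 84.8% of the sites in all 4 lists. The difference from the sites in all 4 lists was −32.2 percentage points (95% interval −35.3 to −29.2) and had this direction on all 20 of the chromosomes 1 to 19 and X. Against the sites of iG+A and iGPA only (76.4%) it was −23.8 points (−27.1 to −20.6), lower on 17 chromosomes and higher on 2. The full AtEAM pattern was found at 108 members (9.38%, 7.76 to 11.2%), beside 15.0% of all sites, 24.5% of the sites in all 4 lists and 21.2% of the sites of iG+A and iGPA only. Other classes had AtEAM shares as low as the members, with 9.19% at sites of iAtoh1 and iG+A only, 8.32% at iAtoh1 alone, 9.91% at iP+A alone, 6.97% at iP+A and iG+A only, and 8.78% at sites that lacked a peak in iGPA alone. Where a member held the pattern, its centre lay a median of 25 bp from the summit, against 17 bp at sites in all 4 lists. In windows 1000 bp upstream of the summit the pattern was found at 2.00% of members.

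The deficit was not equal over the hexamers. CAGCTG was found at 27.7% of members and 62.6% of the sites in all 4 lists, and CAGATG at 31.9% and 46.3%. CATATG, the least common of the cores, was at 6.43% and 5.85%, a difference of 0.58 points with an interval from −0.88 to 2.27. Outside the cores, CAGGTG was at 12.9% against 23.8%, whereas CAAATG was more frequent at members, 18.9% against 10.5%. Any CANNTG was at 80.8% of members and 93.9% of the sites in all 4 lists. The windows of the members were also poorer in G and C, with a median of 44.8% against 56.0% at sites in all 4 lists and 50.8% over all sites with an Atoh1 peak. Other classes were alike, with 45.2% at iAtoh1 alone and at iAtoh1 and iG+A only, and 43.2% at all lists but iGPA. The part of base composition in the hexamer shares was not tested.

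Patterns of the other factors were rare. The Pou4f pattern, ATAATTAAT with up to 1 mismatch on either strand, was found at 85 members (7.38%, 5.94 to 9.05%), beside 8.09% of all sites with an Atoh1 peak, 3.59% of the sites in all 4 lists and 2.77% of the sites of iG+A and iGPA only. The differences from the last 2 classes were 3.80 points (2.31 to 5.53) and 4.62 points (3.10 to 6.36). In windows 1000 bp upstream of the summit the pattern was found at 8.43% of members. There it was at 8.33% of the sites in all 4 lists and 7.93% of the sites of iG+A and iGPA only, so each class had a lower share at the summit than upstream. A Gfi1 pattern, AATCACAGC or AATCACTGC on either strand, was found at 7 members (0.61%), beside 0.577% of all sites and 0.48% of the sites in all 4 lists, and the interval of that difference ran from −0.27 to 0.79 points. All 7 had a sequence found once in the genome. Among single-copy sites, a split made after seeing the data, they were 1.26% of members against 0.49% of the sites in all 4 lists, a difference of 0.77 points (0.07 to 2.10). At the Ccr7 site, printed above, the Gfi1 pattern shared 1 base with CAGCTG and its centre lay 2 bp from the iP+A summit, on which the printed sequence is not centred, and at a site near AC157912.1 on chromosome 19 it shared 4 bases with a core hexamer. Both sites were singled out after their values were seen, and neither had a Gfi1 peak in iGPA. Short tandem repeats covered the summit at 4 members (0.35%), beside 0.771% of all sites and 1.09% of the sites in all 4 lists.

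The deficits were also present at matched strength. Among sites whose lower −log10 p over iAtoh1 and iP+A was under 6, a core hexamer was at 52.1% of 474 members and 82.6% of 684 sites in all 4 lists. At 10 and over it was at 52.4% of 145 members and 87.6% of 2204 sites in all 4 lists. The AtEAM pattern was at 11.0% of members at 10 and over (6.44 to 17.3%) and at 27.2% of the sites in all 4 lists (25.3 to 29.1%). Across the 4 strength classes the member share of core hexamers stayed between 52.1% and 53.2%. Among single-copy sites at 10 and over, AtEAM was at 23.7% of 59 members (13.6 to 36.6%) and 29.8% of 1921 sites in all 4 lists (27.7 to 31.9%), so these intervals overlapped. Core hexamers in the same single-copy sites were at 78.0% (65.3 to 87.7%) and 93.6% (92.4 to 94.7%).

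**Figure D3:**
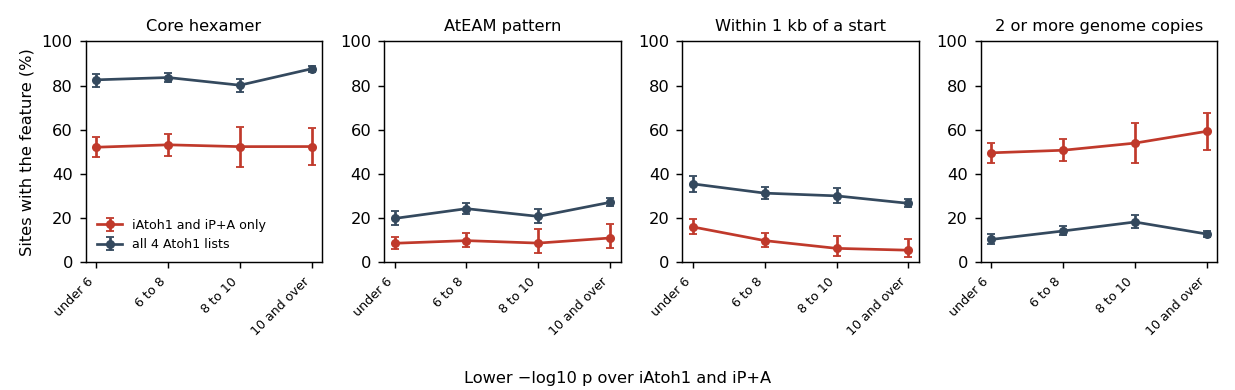
Share of sites (vertical axis, %) with a core hexamer, the AtEAM pattern, a summit within 1 kb of a transcription start, or 2 or more near-identical genome copies, by classes of the lower −log10 p over iAtoh1 and iP+A (horizontal axis), with bars for the exact 95% interval. In each class the members lie below the sites in all 4 lists in the first 3 panels and above them in the last, for example 59.3% against 12.8% with copies at 10 and over.

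More than 1 in 2 members lay in sequence that the genome holds more than once. Of the members, 595 (51.7%, 95% interval 48.8 to 54.6%) had at least 2 near-identical copies of their 250 bp in the genome, counting a copy where at least 95% of the bases matched, beside 25.4% of all sites with an Atoh1 peak. The share was 13.6% at sites in all 4 lists, a difference of 38.1 points (35.0 to 41.1), and 11.2% at sites of iG+A and iGPA only, a difference of 40.5 points (37.4 to 43.6). It was higher at members on 19 of the 20 chromosomes in both comparisons. At least 5 copies were found for 35.1% of members and at least 20 for 16.0%, against 8.06% and 3.78% of the sites in all 4 lists. Other combinations that hold an iAtoh1 peak and no iGPA peak had shares as high, with 54.8% for iAtoh1 alone, 57.2% for iAtoh1 and iG+A, and 60.6% for these with iP+A. All combinations with an iGPA peak lay between 8.92% and 36.0%. The authors removed reads of low mapping quality, and the part of that step in the absence of peaks at repeated sequence was not tested.

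Chromosome 14 held 235 members (20.4%), beside 10.0% of all sites with an Atoh1 peak and 6.42% of the sites in all 4 lists. Chromosomes 4 and 7 held 132 (11.5% beside 8.92%) and 99 (8.60% beside 6.81%). Bins of 1 Mb with at least 100 sites of any list numbered 56 of the 2569 bins with a site. In them lay 514 members (44.7%), beside 20.8% of all sites with an Atoh1 peak and 14.7% of the sites in all 4 lists. Other classes had shares near or above that of the members. These were 47.3% at iAtoh1 and iG+A only, 52.2% at all lists but iGPA, 39.9% at iP+A and iG+A only, and 36.8% at iAtoh1 alone. The bin with the highest number of members starts at 7 Mb on chromosome 14 and held 40 among 688 sites. The bins at 145 and 146 Mb on chromosome 4 followed, with 38 and 37. By near-identity of their sequences, 128 members fell into 53 groups of at least 2, and the largest group had 8 members, all on chromosome 14. The second group had 7 members between positions 3195931 and 8414073 of chromosome 14, with medians of −log10 p of 17.0 in iAtoh1 and 19.1 in iP+A, and all 7 had a left-out called peak in iG+A or iGPA. Neighbouring copies share sequence, so these members are not independent observations.

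**Figure D4:**
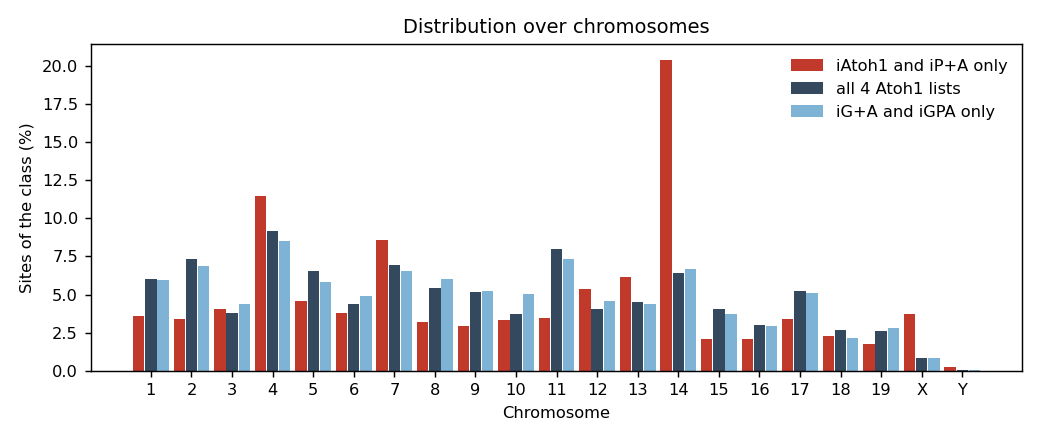
Share of each class of sites (vertical axis, %) by chromosome (horizontal axis) for sites of iAtoh1 and iP+A only, of all 4 Atoh1 lists, and of iG+A and iGPA only. The first class has 20.4% of its sites on chromosome 14, against 6.42% of the sites in all 4 lists.

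Splitting the members by copy number gave 556 single-copy sites and 595 sites with copies, and the sets differed in almost every readout. A core hexamer was at 76.1% of single-copy members (72.3 to 79.6%) and 30.6% of those with copies (26.9 to 34.5%). The AtEAM pattern was at 16.2% and 3.03%, and the median GC content was 52.8% and 39.6%. Peak strength was alike, with medians of 3.05-fold and 3.18-fold in iAtoh1. A left-out peak in iG+A or iGPA overlapped 11.5% of single-copy members and 54.6% of those with copies. Like was then compared with like. Among single-copy sites the members still held fewer core hexamers than the sites in all 4 lists (91.3%), a difference of −15.2 points (−19.0 to −11.7), and fewer AtEAM patterns (27.0%), a difference of −10.8 points (−14.0 to −7.27). Against single-copy sites of iG+A and iGPA only, the differences were −4.97 points (−8.96 to −1.28) and −7.00 points (−10.3 to −3.36). The Pou4f pattern was at 3.42% of single-copy members and 2.16% of single-copy sites in all 4 lists, and the interval of the difference, −0.06 to 3.16 points, took in 0.

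**Figure D5:**
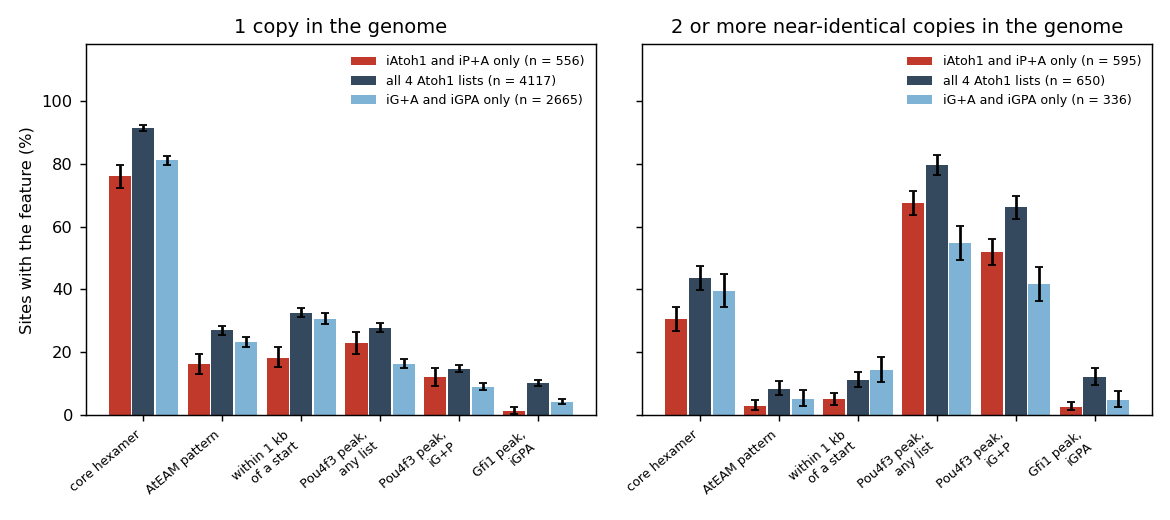
Share of sites (vertical axis, %) with each feature (horizontal axis) in 3 classes of Atoh1 sites, separately for sequences found once in the genome (left) and for sequences with 2 or more near-identical copies (right), with bars for the exact 95% interval. Core hexamers were at 76.1% of single-copy members and 30.6% of members with copies, and Pou4f3 peaks in any list at 22.8% and 67.6%.

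A Gfi1 peak of iGPA, the line in which Gfi1 was precipitated, overlapped 23 members (2.00%, 95% interval 1.27 to 2.98%), beside 3.90% of all sites with an Atoh1 peak. The share was 10.5% at sites in all 4 lists and 4.27% at sites of iG+A and iGPA only, differences of −8.53 points (−9.65 to −7.24) and −2.27 points (−3.29 to −1.08). Shares in other classes were as low, with 1.06% at iAtoh1 alone, 1.78% at iP+A alone, 2.23% at iG+A alone, 1.64% at iGPA alone and 2.56% at iAtoh1 and iG+A only. Both comparison classes hold an Atoh1 peak of iGPA by definition and the members hold none, and the Gfi1 and Atoh1 lists of iGPA share their input. Of the 23, 16 lay in sequence with copies and 13 had a left-out Atoh1 peak in iG+A or iGPA. The strongest of these Gfi1 peaks was in an intron of Gm20388, 119908 bp from a start of 1110050K14Rik (chr8:123464229-123464565), with −log10 p of 12.9 and 5.50-fold. That site held a Gfi1 pattern with its centre 4 bp from the iP+A summit, had 4.52-fold Atoh1 enrichment in iAtoh1 and 7.21-fold in iP+A, and had no called Atoh1 peak in iG+A and iGPA. It was the 1 member with both a Gfi1 peak and a Gfi1 pattern. The next Gfi1 peaks were in a sequence of 49 copies near Gm5456, at the starts of Sgpl1 (−log10 p 12.2) and Pth1r (11.2), and in a tandem repeat in an intron of Epha3 (10.9).

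A Pou4f3 peak of at least 1 of the 4 lists overlapped 529 members (46.0%, 43.1 to 48.9%), beside 32.3% of all sites with an Atoh1 peak, 34.9% of the sites in all 4 lists and 20.7% of the sites of iG+A and iGPA only. Other classes had shares as high, with 41.6% at iAtoh1 and iG+A only, 51.5% at iP+A and iG+A only, 49.6% at all lists but iG+A and 62.1% at all lists but iGPA. By list, it was 32.7% in iG+P (all sites with an Atoh1 peak 20.6%), 23.0% in iP+A (14.9%), 11.4% in iPou4f3 (13.5%) and 4.43% in iGPA (11.0%). The iGPA Pou4f3 list shares its line and input with an Atoh1 list that the rule used. Among members with copies 67.6% had a Pou4f3 peak, among single-copy members 22.8%. In the single-copy comparison the direction turned, and the difference from the sites in all 4 lists (27.8%) was −4.99 points (−8.57 to −1.09). Among sites with copies the members also lay below the sites in all 4 lists (79.5%), a difference of −12.0 points (−16.8 to −7.08), so the excess of the pooled share was present in neither copy class. Against the sites of iG+A and iGPA only the members were higher in both, by 6.44 points (2.84 to 10.4) and 12.8 points (6.29 to 19.3). A Pou4f3 peak in a line without an Atoh1 transgene, iPou4f3 or iG+P, overlapped 432 members (37.5%, 34.7 to 40.4%), 301 of them in iG+P and not in iPou4f3. The share was 25.6% over all sites with an Atoh1 peak and 28.1% at sites in all 4 lists. Within copy classes it was 56.0% of the members and 71.5% of the sites in all 4 lists with copies, and 17.8% and 21.3% of the single-copy sites. Antibody and line both differ between those lists and the Atoh1 lists. No peak of Pou4f3 or Gfi1 was at 618 members (53.7%).

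The members were less often at promoters than the sites in all 4 lists and the sites of iG+A and iGPA only. A summit lay within 1 kb of an annotated transcription start at 132 members (11.5%, 9.68 to 13.5%), beside 23.6% of all sites with an Atoh1 peak. The difference was −18.2 points (−20.3 to −15.8) from the sites in all 4 lists (29.6%) and −17.4 points (−19.8 to −14.9) from the sites of iG+A and iGPA only (28.9%). The share was much the same at sites of iAtoh1 and iG+A only (11.9%), of iAtoh1 alone (13.5%) and of all lists but iGPA (11.4%). The differences among single-copy sites were −14.2 points (−17.5 to −10.5) and −12.3 points (−15.8 to −8.51). In strong single-copy members, with both −log10 p of 10 and over, 3 of 59 lay within 1 kb of a start, against 28.7% of 1921 sites in all 4 lists. By place, 597 members (51.9%) were intergenic, beside 46.4% of all sites with an Atoh1 peak, and 454 (39.4%) were in introns, beside 41.0%. Untranslated regions held 47 (4.08% beside 6.39%) and coding exons 37 (3.21% beside 4.45%).

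Many of the nearest genes were predicted genes, pseudogenes or members of tandem families. Predicted genes with Gm numbers were nearest to 486 members (42.2%), beside 23.9% of all sites with an Atoh1 peak and 18.2% of the sites in all 4 lists. Pseudogenes were nearest to 181 (15.7%, beside 9.34% and 6.52%). Vomeronasal receptor genes, which encode pheromone receptors, were nearest to 39 members (3.39%, beside 1.40% and 0.80%), with 11 at Vmn2r49. The prolactin family was nearest to 14 (1.22%, beside 0.50% and 1.05%), with 12 at Prl2c3. Cytochrome P450 genes were nearest to 10 (0.87%, beside 0.32% of all sites with an Atoh1 peak), Tdpoz genes to 9 (0.78% beside 0.14%), Raet1 genes to 7 (0.61% beside 0.21%) and Naip genes to 6 (0.52% beside 0.18%). Speer genes were nearest to 4 (0.35% beside 0.09%). Not every family was more frequent at members. Olfactory receptor genes were nearest to 1 member (0.087% beside 0.27%) and zinc finger genes named Zfp to 16 (1.39% beside 1.38%). Small nuclear RNA genes (U1, U6 and 7SK) were nearest to 33 (2.87%), a lower share than at all sites with an Atoh1 peak. Of these 33, 21 were at U6. These families were chosen after the names were seen.

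The members' nearest genes were also set against lists of genes. The nearest starts of all sites with an Atoh1 peak belonged to 15709 of 33887 annotated genes, and those of members to 817 (2.41%). Of 30 hair cell genes, 4 (13.3%) were nearest to a member (Tmc1, Srrm4 and Pcp4 are described here). So were 1 of 31 annotated neuronal genes (St18), 1 of 20 Notch genes (Jag1), 1 of 17 pluripotency genes (Esrrb) and 2 of 4 Id genes (Id1 and Id2). Nearest to at least 1 site with an Atoh1 peak were 22 hair cell, 21 neuronal, 18 Notch, 9 pluripotency and 4 Id genes of these lists. No member was nearest to any of 39 annotated Hox genes, 17 blood genes and the 2 genes Otx1 and Neurod4. Any site with an Atoh1 peak was nearest to 9 of these Hox genes, 14 of these blood genes and the last 2. The 9 member sites near listed genes were all single-copy, and 7 lay more than 5 kb from the start. The Tmc1 site, in an intron of a gene for the hair cell transduction channel, had 4.15-fold and 3.33-fold and a left-out iG+A peak of 3.34-fold. The Srrm4 site lay 669 bp upstream of a start of this splicing regulator, held the AtEAM pattern, and had 3.54-fold and 3.01-fold. The Pcp4 site, 66201 bp from the start, had 2.93-fold in iAtoh1 and 5.59-fold in iP+A. The Esrrb site, 13121 bp from the start, had 2.93-fold and 5.16-fold. Jag1, a Notch ligand gene, had an intronic site of 2.69-fold and 3.66-fold with an iPou4f3 Pou4f3 peak. Id1 and Id2 encode inhibitors of helix-loop-helix factors. Their sites had 3.05-fold and 2.58-fold for Id1, and 2.93-fold and 2.47-fold for Id2, 86794 bp from the start. The St18 site, in an intron of this zinc finger gene, was the weakest in iAtoh1, with 19 fragments, the fewest of any kept peak at the usual background of that list.

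The cleanest subset held 492 single-copy members with no called Atoh1 peak, kept or left out, in iG+A and iGPA. A core hexamer was at 80.5% of them (76.7 to 83.9%), the AtEAM pattern at 17.7% (14.4 to 21.3%), a start within 1 kb at 18.5% and a Gfi1 peak at 1.22%. Single-copy sites of iG+A and iGPA only, not filtered for left-out peaks, held a core hexamer at 81.1% (79.5 to 82.5%) and AtEAM at 23.2% (21.6 to 24.8%), so the lower core share of the members against that class was not seen in this subset, and the difference was not tested. Single-copy sites in all 4 lists held them at 91.3% and 27.0%. Their median fold enrichment was 3.05 in iAtoh1 and 3.12 in iP+A. The 389 members with a left-out peak stood apart from them, with core hexamers at 32.1% and copies at 83.5%.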

How the data were processed

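Groups came from the sample titles. In the study's methods, the authors aligned trimmed reads to mm9 (Bowtie 2), discarded duplicates, poorly mapped reads and blacklisted regions, and used MACS2 to call peaks from merged replicates with merged inputs as control. The submitters' processing notes name the same tools and build. The deposited fold enrichment is a ratio to the local background, and each deposited −log10 p is the peak caller's value at the summit. Deposited −log10 q values were not used. The deposited summit lists hold the kept peaks with a signal column of unstated meaning, which was not used here. Read depth was not used. Fragments were recovered from fold and −log10 p, with a tolerance of 0.001, for 99.9% of kept peaks in each Atoh1 list, with a usual background of 6.49 to 8.30 fragments.

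Joining, classes and shares were computed in Python 3.11.15 (pandas 2.3.3, SciPy 1.17.1). The iGPA lists were matched by name. Each site took the features of its Atoh1 summit of highest −log10 p. Patterns were searched in 250 bp of NCBIM37. Transcription starts were those of the GENCODE annotation of that build. Copies were alignments by minimap2 2.31-r1302 (short-read preset, up to 50 secondary hits) with at least 95% of 250 bases matching. In all 4 lists, 2 sites without any alignment were counted as single-copy. Shares have exact Clopper-Pearson 95% intervals and differences have Newcombe intervals. Both kinds of interval cover counting error only, and treat sites as independent although neighbouring or near-identical sites are not. No p-value was computed, since sites are not replicates. Members, lists and patterns were chosen with earlier results of these data known. Named sites were the 10 strongest members without any called Atoh1 peak in iG+A and iGPA. The 5 strongest such members with AtEAM outside tandem repeats were added, and the 5 members with the strongest Gfi1 peak. The rest were members nearest to a listed gene, the sites at the edge of the rule, and 2 top sites of each comparison class. The top sites of all 4 lists were tandem repeats and are not shown. The scripts were tested on simulated data. Some named sites are not reported here.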

Additional observations from a re-analysis of the deposited data

How the results depend on the processing

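No paired analysis was possible because peaks were called on merged replicates and the lists carry no replicate, and for the same reason no replicate could be left out. Of 16 differences between members and a comparison class, 13 had intervals without 0, and 381 of 385 of their alternative values kept the sign. Most of these alternatives left out 1 chromosome and kept most of the sites, so they could hardly turn and the count says little. All 4 that turned came from other settings, as did the 7 whose interval came to take in 0. The 4 that turned were all the difference in Pou4f3 peaks from the sites in all 4 lists: −5.72 points with windows of 1000 bp, −2.21 with absence judged on all called peaks, −4.99 in single-copy sites and −0.564 outside dense 1 Mb bins. Settings on copies and dense bins were chosen after seeing the data.

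The number of members was 727 with windows of 1000 bp and 762 with absence on all called peaks. It was 145 with −log10 p of at least 10 in iAtoh1 and iP+A, and 692 with no kept summit within 1000 bp. With only peaks of at least 10 used in every list it was 375, and weaker kept iG+A or iGPA peaks then counted as absent. As a share of sites with iAtoh1 and iP+A peaks these were 10.2%, 9.86%, 1.88%, 8.95% and 14.0%. The 1.88% is a share of all 7730 sites with both peaks, weak ones included, whereas the 14.0% is a share of sites with both peaks at 10 or more. The share was 16.9% with windows of 100 bp and 9.79% with all called peaks in every list.

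With windows of 100 bp, Pou4f3 peaks were at 37.5% and left-out peaks at 27.6%. With windows of 1000 bp, AtEAM was at 13.3%, the Pou4f pattern at 5.78%, Pou4f3 peaks at 38.8%, left-out peaks at 22.6% and copies at 36.0%, and the differences were 0.640 points (Gfi1 pattern, iG+A and iGPA only) and −0.501 (repeats, all 4 lists). With absence on all called peaks, AtEAM was at 12.6%, Pou4f at 5.91%, promoters at 13.9%, Pou4f3 peaks at 32.7%, copies at 35.4% and, by construction, left-out peaks at 0%, and the Gfi1 pattern difference from iG+A and iGPA only was 0.575. With −log10 p of at least 10 in iAtoh1 and iP+A, the Gfi1 pattern was at 2.07%, repeats at 1.38%, promoters at 5.52%, Gfi1 peaks at 6.90%, Pou4f3 peaks at 56.6%, left-out peaks at 66.2% and copies at 59.3%, and the differences were 1.52 (Gfi1 pattern, all 4 lists), −0.436 (repeats, all 4 lists) and −0.230 (Gfi1 peaks, iG+A and iGPA only). With no kept summit within 1000 bp, copies were at 36.7%, and at 98% identity at 44.4%. In place of AtEAM, core hexamers were at 52.6% and any CANNTG at 80.8%. Pou4f without mismatch was at 0.261%. Promoters were at 31.3% within 5 kb and at 9.47% for protein-coding starts.

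In single-copy sites, AtEAM was at 16.2%, Pou4f at 3.42%, the Gfi1 pattern at 1.26%, promoters at 18.3%, Gfi1 peaks at 1.26%, Pou4f3 peaks at 22.8% and left-out peaks at 11.5%, with differences of 1.26 and 0.941 (Pou4f, all 4 lists and iG+A and iGPA only), 0.773 and 0.959 (Gfi1 pattern) and −0.276 (repeats, all 4 lists). Outside dense bins, AtEAM was at 14.4%, Pou4f at 3.92%, promoters at 15.7%, Pou4f3 peaks at 27.8%, left-out peaks at 15.9% and copies at 24.8%, with differences of 0.635 (Gfi1 pattern, iG+A and iGPA only) and −0.528 (repeats, all 4 lists). Leaving out 1 chromosome at a time gave 916 to 1148 members, 13.4 to 15.4% of sites with both peaks, Pou4f3 peaks at 40.8 to 47.0%, left-out peaks at 26.2 to 34.7% and copies at 42.0 to 53.3%, with chromosome 14 setting the low end of each. Where no cause is stated, it was not tested.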
